A study of Mus musculus with 6 samples.

Results

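The genes described here are 29 genes of cholesterol synthesis, its regulation and sterol efflux, taken by symbol from the deposited table of read counts. All 29 were among the 55376 genes of that table, and all 29 were among the 18547 genes with enough reads to be tested. By role, 18 encode enzymes of the synthesis pathway, 7 encode regulators and 4 act in efflux, transport or turnover of sterols. They were grouped by these known roles.

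RNA-seq was performed on whole retinas of 3 WT mice and 3 *Wfs1*-KO mice at 240 days of age, in a study of optic nerve degeneration in a mouse model of Wolfram syndrome. The mutants were *Wfs1*-/- and carried the *Wfs1* exon8del targeted allele in every cell of the body, so that an effect in 1 cell type of the retina cannot be told apart from one elsewhere. The strain was labelled C57x129 for all 6 samples, whereas the study's methods describe a C57BL/6 J background, and the labels name no treatment. The study's methods describe the 3 retinas of a group as coming from separate animals, and litters were not given in the sources used here.

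Cholesterol is built from acetyl-CoA by way of mevalonate and squalene, after which lanosterol is trimmed and rearranged into cholesterol. The SREBP transcription factors switch on these enzymes when sterols in the endoplasmic reticulum run low, SCAP escorts SREBP to the Golgi for activation, and INSIG proteins hold SCAP back when sterols are plentiful. When oxysterols accumulate, the nuclear receptors LXRα and LXRβ switch on the efflux pumps ABCA1 and ABCG1. In the neural retina, which lies behind a blood barrier, much of the cholesterol is made locally, with Müller glia a major site.

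SREBP-2 acts on promoters together with factors that bind CCAAT and GC boxes, and the promoters of 3 genes are shown to let these letters be seen. *Hmgcs1* is shown because its promoter held the sterol regulatory element searched for, and *Sc5d* and *Insig1* because they were the members whose genotypes did not overlap in the counts described below. Each window runs from 250 bases before to 50 bases after a RefSeq transcription start (GRCm38.p6) and is written 5′ to 3′ on the gene's strand. Capitals mark matches, on either strand, to the sterol regulatory element searched as TCACNCCAC, to the CCAAT box, to the GC box searched as GGGCGG or to the E-box searched as CACGTG. None of the printed matches overlaps another.
*Hmgcs1*, chr13:119690101-119690400, plus strand: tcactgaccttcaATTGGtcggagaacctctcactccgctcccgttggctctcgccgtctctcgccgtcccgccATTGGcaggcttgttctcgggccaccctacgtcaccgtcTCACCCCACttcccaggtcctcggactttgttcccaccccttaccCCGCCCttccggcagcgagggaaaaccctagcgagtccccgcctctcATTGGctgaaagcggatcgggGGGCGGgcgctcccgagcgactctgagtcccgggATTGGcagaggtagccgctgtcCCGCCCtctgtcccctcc
*Sc5d*, chr9:42264251-42264550, minus strand: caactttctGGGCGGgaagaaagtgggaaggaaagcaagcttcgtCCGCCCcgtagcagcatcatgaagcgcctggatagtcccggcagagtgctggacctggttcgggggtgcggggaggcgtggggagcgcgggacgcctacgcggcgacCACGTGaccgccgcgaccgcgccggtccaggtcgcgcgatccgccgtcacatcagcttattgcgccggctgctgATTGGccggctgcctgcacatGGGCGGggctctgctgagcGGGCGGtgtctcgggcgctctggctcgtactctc
*Insig1*, chr5:28071162-28071461, plus strand: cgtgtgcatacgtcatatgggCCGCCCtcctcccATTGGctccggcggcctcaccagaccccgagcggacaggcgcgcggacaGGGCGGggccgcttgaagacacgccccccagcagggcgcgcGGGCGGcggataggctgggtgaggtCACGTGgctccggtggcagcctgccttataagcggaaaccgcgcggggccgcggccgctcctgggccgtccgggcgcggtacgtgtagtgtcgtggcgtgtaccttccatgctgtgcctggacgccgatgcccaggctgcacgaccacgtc
In the *Hmgcs1* window, the sterol regulatory element began at position -137 relative to the start and lay between CCAAT boxes at -176 and -45. The *Sc5d* window held a CCAAT box at -24 and an E-box at -98, and the *Insig1* window a CCAAT box at -216 and an E-box at -101.

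A window was found for 24 of the 29 members, and not for *Sqle*, *Stard4*, *Fdps*, *Fdft1* and *Abcg1*. Among the 15 synthesis enzymes with a window, 14 held CCAAT (93.3%), against 41.1% of the 27025 genes with a window of this length. The same number of the 15 enzymes held GGGCGG (93.3%, against 38.2% of all genes). The E-box was found in 3 of the 15 enzymes (20.0%, against 8.09%) and the sterol regulatory element in *Hmgcs1* alone (6.67%, against 1.44%). Among the 7 regulators, 4 held CCAAT, 5 held GGGCGG and 2 held the E-box. Of the 2 efflux and turnover genes with a window, 1 held CCAAT, 2 held GGGCGG and 1 held the E-box. The comparison genes were all those with a window and were not limited to genes tested in these retinas. Exact copies of the LXR element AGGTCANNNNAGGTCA were absent from every window of the members, including that of *Abca1*. They were found in 0.015% of all genes. The search could not find elements that differ from these letters, so it cannot decide whether a promoter holds an LXR site. Genes with several annotated starts have several windows and so more chances of a match, and such matches describe letters only.

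The libraries held between 17916885 (WT replicate 3) and 101334381 (*Wfs1*-KO replicate 1) assigned reads, and the least covered member had at least 23 reads in every retina. *Wfs1* itself was measured at 61.4 to 69.9 CPM (counts per 1000000 assigned reads, scaled by the trimmed mean of M values) in WT and at 0.900 to 11.5 CPM in *Wfs1*-KO, in the direction of the labels. *Wfs1*-KO replicate 2 stood apart: its log2 CPM correlated with those of the other retinas at a mean r of 0.918 across genes, against 0.962 to 0.971 for the other 5 retinas. Over the 29 members alone the mean r was 0.864, against 0.952 to 0.958. In that retina the summed CPM of 8 reactive glia markers was 630 (57 to 68 in WT, 108 to 156 in the other 2 mutants), that of 9 microglia and macrophage markers 309 (46 to 51 and 41 to 62), that of 5 red blood cell genes 480 (12 to 41 and 20 to 23), and that of 8 pigment epithelium markers 481 (112 to 164 and 51 to 90). All 8 Müller glia markers were present in every retina, with a summed level of 5126 to 5443 CPM in WT and 4094 to 4822 CPM in the mutants, so that the groups did not overlap. Rod markers summed to 36646 to 41059 CPM in WT and 33628 to 34260 CPM in the mutants, also without overlap. In each of these lists 2 of 8 genes had a log2 fold change above 0, so the sums do not describe every marker. Sums of 7 myelin and oligodendrocyte markers were without overlap too, but higher in the mutants, as were the reactive glia sums. The myelin sums were 52.0 to 61.4 CPM in WT and 63.7 to 88.0 CPM in the mutants. Of single tested genes, 8.96% did not overlap between genotypes. The part of these cell types in the sterol gene values was not tested, and fewer cells of a type cannot be told apart from less RNA per cell. WT replicate 3 differed in sex from the other 5 retinas, with 1137 reads of the Y-linked *Ddx3y* and 4 of *Xist*. The estimates of the members below are therefore given with and without *Wfs1*-KO replicate 2, and for some members also without WT replicate 3.

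Levels of the members were compared with each other as CPM per kilobase of exon. In WT retinas the highest mean levels per kilobase were those of *Hmgcs1*, the synthase that forms HMG-CoA (44.3 ± 5.10, SD, n = 3), and of 4 regulators. These were *Srebf2*, which encodes the SREBP that chiefly drives cholesterol genes (42.2 ± 5.40), *Insig1* (40.5 ± 3.91), *Nr1h2*, which encodes LXRβ (38.1 ± 7.83), and *Srebf1*, which encodes the SREBP that chiefly drives fatty acid genes (35.5 ± 6.98). The lowest mean levels per kilobase were those of *Fdps* (0.846 ± 0.0558), *Nr1h3*, which encodes LXRα (1.91 ± 0.282), *Hsd17b7*, a reductase of the late pathway (3.32 ± 0.882), *Abca1* (3.81 ± 2.44) and *Idi1*, the isomerase of isopentenyl diphosphate (7.0 ± 2.0). Of the 28 pairs of neighbours in this order, 25 had overlapping WT ranges, and the 3 steps without overlap were those from *Insig2* to *Sc5d*, from *Hsd17b7* to *Nr1h3* and from *Nr1h3* to *Fdps*. The 5 genes at the top thus could not be ranked among themselves beyond their spread.

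**Figure D1:**
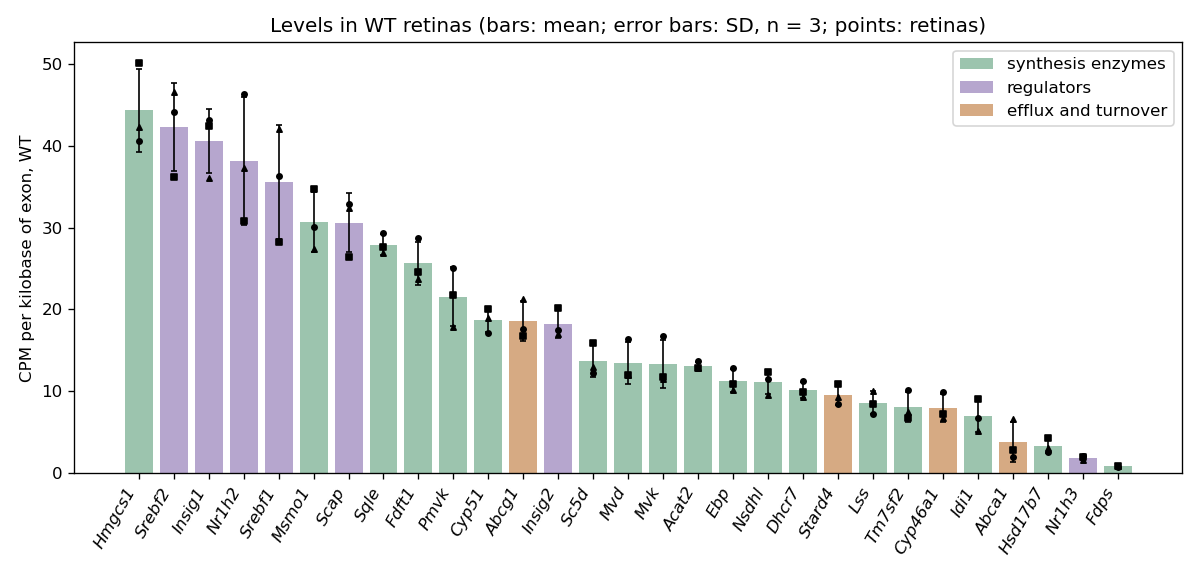
WT levels of the 29 genes in CPM per kilobase of exon (y axis), ordered from highest to lowest and coloured by role. Bars are means, error bars SD over 3 WT retinas and points single retinas. The regulators *Srebf2*, *Insig1*, *Nr1h2* and *Srebf1* stood beside *Hmgcs1* at 35.5 to 44.3, and *Nr1h3* and *Fdps* stood at 1.91 and 0.846.

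The value for *Fdps*, the farnesyl diphosphate synthase, is uncertain. Of its exonic bases in the annotation of the deposited table, 77.4% were shared with the same-strand gene model *Gm43738*, which held 0 to 2 reads per library, and how reads falling in both genes were counted is not given in the sources used here. *Fdps* was counted at 23 to 107 reads per library. The overlap was smaller for *Fdft1*, squalene synthase, of whose exonic bases 19.4% lie antisense to *Ctsb*, a gene with 9651 to 53624 reads. In *Cyp51* 4.22% of the exonic bases lie antisense to *Akap9*, and in *Srebf1* 2.54% lie antisense to *Rai1*. As the strand setting of the counting is not given, reads of such antisense pairs cannot be told apart.

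The coefficient of variation of CPM over 3 WT retinas had a median of 12.9% over the members and of 16.7% over 18545 tested genes. The tested genes were not matched to the members for level, so these medians are not a like comparison. The coefficient was lowest for *Acat2* (3.44%), the cytosolic thiolase that opens the pathway, and for *Sqle* (4.48%), the squalene epoxidase that controls its sterol part. It was above the median of all tested genes for 9 of 29 members, and highest for *Abca1* at 63.9%, followed by *Idi1* (28.6%) and *Hsd17b7* (26.6%). *Abca1* (chr4:53030787-53159895, mm10) was measured at 20.4, 29.5 and 67.5 CPM in WT replicates 1, 2 and 3, and at 57.0, 21.4 and 69.5 CPM in *Wfs1*-KO replicates 1, 2 and 3. High and low retinas were found in both genotypes, and the groups overlapped over most of their range.

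To assess whether loss of *Wfs1* altered the sterol genes, each gene was compared between genotypes with edgeR's quasi-likelihood test over all tested genes. None of the 29 members passed an adjusted p of 0.05, at which 0.0108% of all tested genes were called (2 of 18547). Adjusted p-values of the members from edgeR ran from 0.979 to 0.996. DESeq2 likewise called 0 of 29, against 0.28% of all genes (52 of 18547). At an unadjusted p under 0.05, which 2.81% of all tested genes reached, edgeR gave 1 of 29 members, *Sc5d*. DESeq2 also gave 1 of 29, against 4.02% of all tested genes at an unadjusted p under 0.05 in that tool. Without *Wfs1*-KO replicate 2, edgeR called 0 of 29 at the adjusted threshold (0.125% of all genes, 24 of 19178) and placed 2 of 29 at an unadjusted p under 0.05 (5.19% of all genes), *Sc5d* and *Srebf1*. The levels of *Sc5d* and *Insig1* were lower in all mutant retinas than in all WT retinas, and no member was higher in all. These 2 of 29 stand against 8.96% of all tested genes without overlap in either direction and 3.94% without overlap and lower in the mutants, while 5.01% were without overlap and higher.

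**Figure D2:**
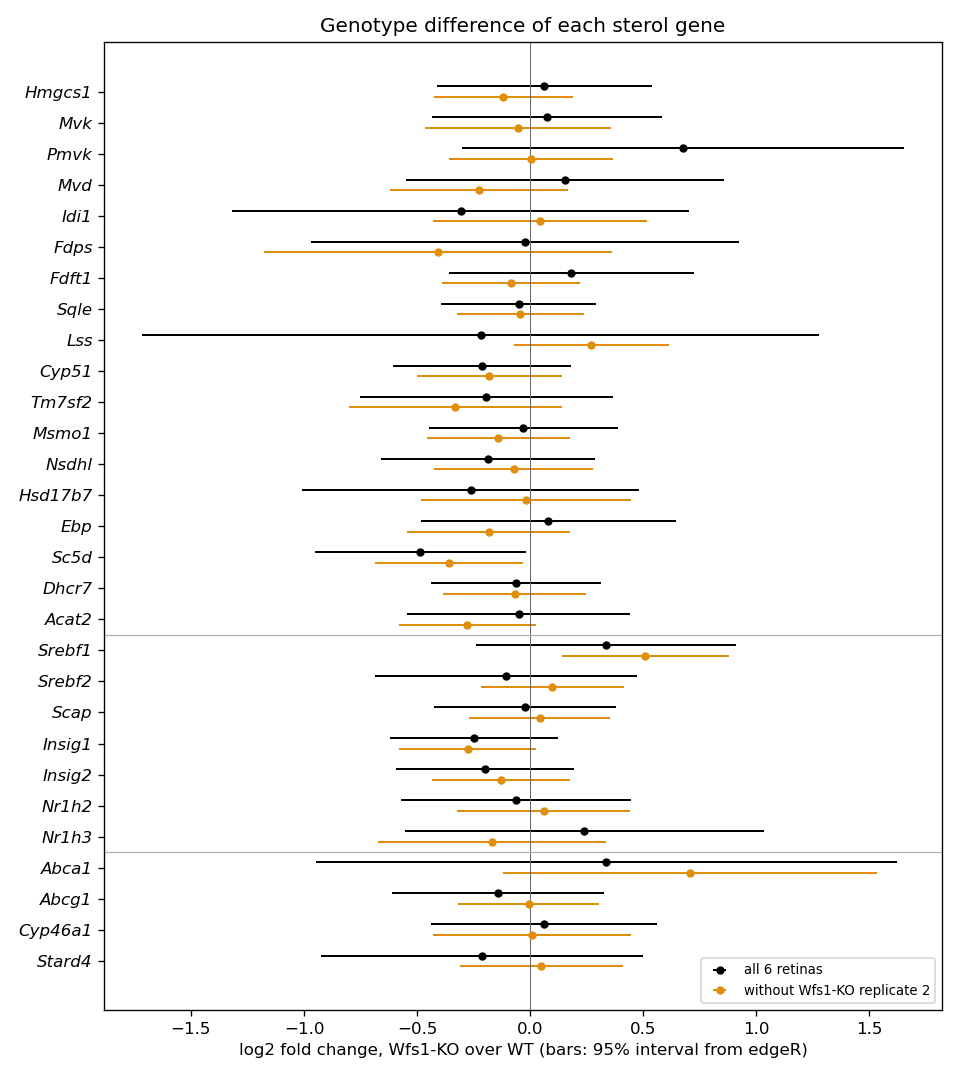
Log2 fold change of each gene, *Wfs1*-KO over WT (x axis), with its 95% interval from edgeR, for all 6 retinas (black) and without *Wfs1*-KO replicate 2 (orange). Grey lines separate synthesis enzymes, regulators and efflux genes. Intervals cover 0 for 28 of 29 genes with all retinas, and the interval of *Lss* narrows from -1.72 to 1.28 to -0.07 to 0.61 without that replicate.

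The synthesis enzymes had a median log2 fold change of -0.05, with 12 of 18 below 0, while the median over all tested genes was 0.02 and 47.2% of them were below 0. Without *Wfs1*-KO replicate 2 the median of the enzymes was -0.10, with 15 of 18 below 0, against a median of 0.00 and 50.1% below 0 over all tested genes. The number below 0 was 9 of 18 without *Wfs1*-KO replicate 1, and 10 of 18 without *Wfs1*-KO replicate 3 or WT replicate 1. It was 12 of 18 without WT replicate 2 and 14 of 18 without WT replicate 3. Medians of the enzymes in these fits ran from -0.10 to -0.01, while 44.8% to 48.3% of all tested genes were below 0. Of the 18 enzymes, *Sc5d* alone reached an unadjusted p under 0.05 in edgeR, and none passed the adjusted threshold.

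*Sc5d* encodes the sterol desaturase that acts on lathosterol near the end of the pathway (chr9:42251595-42264256, mm10). It was measured at 59.3, 77.4 and 63.5 CPM in WT replicates 1, 2 and 3, and at 53.1, 38.5 and 51.3 CPM in the mutants. Every mutant retina was below every WT retina, and *Wfs1*-KO replicate 2 was the lowest of the 6. The log2 fold change was -0.49 ± 0.20 (SE; 95% interval -0.95 to -0.02, unadjusted p = 0.0435, adjusted p = 0.979, edgeR). Without *Wfs1*-KO replicate 2 it was -0.36 ± 0.15 (adjusted p = 0.880, edgeR), and without WT replicate 3 it was -0.54 (unadjusted p = 0.0784, edgeR). Within 2 Mb of *Sc5d* on chromosome 9, 8 of 37 other tested genes (21.6%) had an unadjusted p under 0.05, and the count was 8 of 37 also without *Wfs1*-KO replicate 2. For the other members this share ran from 0% to 15.4%, the latter being 2 of 13 genes around *Hmgcs1*. The part of the chromosomal neighbourhood in the *Sc5d* difference was not tested.

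**Figure D3:**
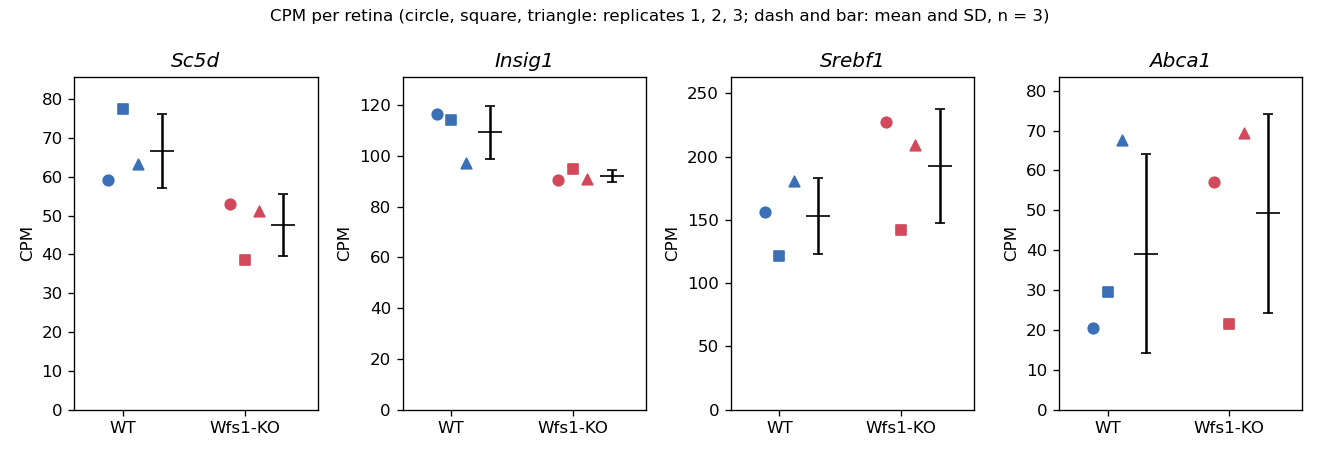
CPM of *Sc5d*, *Insig1*, *Srebf1* and *Abca1* in each retina (y axes start at 0), for WT (blue) and *Wfs1*-KO (red), with mean and SD over 3 retinas. *Sc5d* spans 59.3 to 77.4 CPM in WT and 38.5 to 53.1 CPM in *Wfs1*-KO, whereas *Abca1* spans 20.4 to 67.5 and 21.4 to 69.5 CPM.

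The early enzymes, which lead from acetyl-CoA to farnesyl diphosphate, had estimates below 0 for 3 of 7 genes with all retinas and for 5 of 7 without *Wfs1*-KO replicate 2. *Hmgcs1* was at 141, 174 and 147 CPM in WT and at 138, 198 and 148 CPM in the mutants, with a log2 fold change of 0.06 ± 0.20 (SE; 95% interval -0.41 to 0.54), and of -0.12 without replicate 2. *Acat2* differed by -0.05 (95% interval -0.55 to 0.44), and by -0.28 (-0.58 to 0.02) without that retina. For mevalonate kinase, *Mvk*, the estimate was 0.07 (-0.44 to 0.58), and -0.05 without it. *Pmvk*, the phosphomevalonate kinase, had the largest estimate of all members, a log2 fold change of 0.68 ± 0.42 (SE), which was 0.00 ± 0.16 without *Wfs1*-KO replicate 2. It was at 42.9, 37.2 and 30.6 CPM in WT and at 38.8, 103 and 35.7 CPM in the mutants, so that replicate 2 alone lay outside the WT range. *Mvd*, the decarboxylase that follows, was at 20.2 to 28.9 CPM in 5 retinas and at 38.5 CPM in *Wfs1*-KO replicate 2, and its estimate turned from 0.16 to -0.23 without that retina. *Idi1* went the other way, at 15.5 to 27.6 CPM in 5 retinas and at 7.34 CPM in *Wfs1*-KO replicate 2 (-0.31 with that retina, 0.04 without it). The low level of *Fdps* left a wide interval, from -0.97 to 0.92 around an estimate of -0.02, which was -0.41 (-1.18 to 0.36) without replicate 2.

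Along the squalene and lanosterol steps, *Sqle* lay close in both genotypes, at 76.9 ± 3.45 CPM in WT and 74.3 ± 1.26 CPM in *Wfs1*-KO (SD, n = 3). Its log2 fold change was -0.05 (-0.04 without *Wfs1*-KO replicate 2) with a 95% interval of -0.39 to 0.29, which leaves room for differences of either sign within those bounds. *Fdft1* was at 94.7 to 114 CPM in 5 retinas and at 154 CPM in *Wfs1*-KO replicate 2, and its estimate turned from 0.18 to -0.08 without that retina. *Lss*, the lanosterol synthase that closes the sterol rings, was at 34.0, 39.4 and 47.0 CPM in WT and at 47.5, 6.42 and 49.4 CPM in the mutants. *Wfs1*-KO replicate 2 thus held 0.150 times the geometric mean level of *Lss* in the other 5 retinas, whereas the other 2 mutants were above every WT retina. The log2 fold change of *Lss* was -0.22 with all retinas and 0.27 without replicate 2 (adjusted p = 0.966, edgeR).

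The enzymes that turn lanosterol into cholesterol had estimates between -0.49 (*Sc5d*) and 0.08 (*Ebp*, the sterol isomerase). *Cyp51*, the lanosterol demethylase, was at 67.3 to 78.9 CPM in WT and 58.4 to 72.0 CPM in *Wfs1*-KO, with a log2 fold change of -0.21 (95% interval -0.61 to 0.18). *Msmo1*, the sterol methyl oxidase, differed by -0.03 (-0.45 to 0.39) and *Tm7sf2*, a sterol reductase, by -0.19 (-0.75 to 0.37). *Hsd17b7* was at 12.9 to 21.6 CPM in WT and at 16.3, 8.67 and 16.9 CPM in the mutants, with *Wfs1*-KO replicate 2 lowest. Without replicate 2 the estimates were -0.18 for *Cyp51*, -0.14 for *Msmo1*, -0.33 for *Tm7sf2* and -0.02 for *Hsd17b7*, the last having been -0.26 with it. *Dhcr7*, the reductase that yields cholesterol from its dehydro precursor, was at 33.6 ± 3.13 CPM in WT and 32.2 ± 0.610 CPM in *Wfs1*-KO (SD, n = 3), a log2 fold change of -0.06 (-0.44 to 0.32), and of -0.07 without replicate 2. The X-linked members *Nsdhl*, a dehydrogenase, and *Ebp* gave -0.19 and 0.08 with all retinas, and -0.30 and -0.01 without WT replicate 3, the retina of the other sex. They gave -0.07 and -0.18 without *Wfs1*-KO replicate 2.

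**Figure D4:**
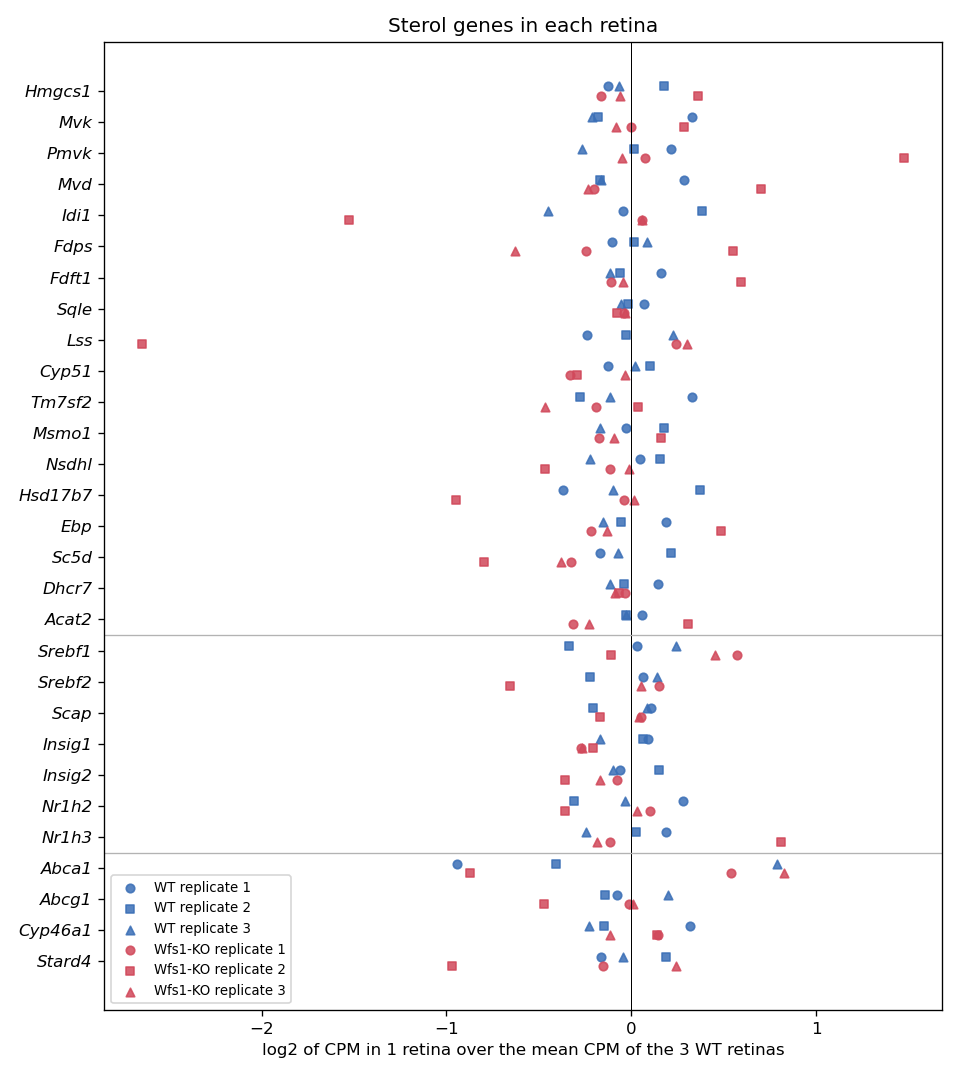
Each gene in each retina, as the log2 of its CPM over the mean CPM of the 3 WT retinas (x axis), for WT (blue, upper row of each gene) and *Wfs1*-KO (red, lower row). Marker shapes are replicate numbers. The red squares of *Wfs1*-KO replicate 2 lie far from the other retinas for *Lss* (6.42 CPM), *Pmvk* (103 CPM) and *Idi1* (7.34 CPM), and the 3 red markers of *Sc5d* and *Insig1* lie left of all blue ones.

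Among the regulators, the SREBP genes gave estimates of opposite sign with all retinas and of the same sign without *Wfs1*-KO replicate 2. *Srebf1* (chr11:60199089-60220604, mm10) was at 156, 121 and 181 CPM in WT replicates 1, 2 and 3, and at 227, 142 and 209 CPM in the mutants. *Wfs1*-KO replicate 2 lay within the WT range, and the other 2 mutants were above it. The log2 fold change of *Srebf1* was 0.33 ± 0.24 (SE; 95% interval -0.24 to 0.91, adjusted p = 0.979, edgeR). Without *Wfs1*-KO replicate 2 it was 0.51 ± 0.17 (SE, 95% interval 0.14 to 0.88, adjusted p = 0.694, edgeR), and the adjusted p in DESeq2 without that replicate was 0.380. Without WT replicate 3 the log2 fold change of *Srebf1* was 0.46. *Srebf2* was at 224, 184 and 236 CPM in WT and at 238, 136 and 222 CPM in the mutants, a log2 fold change of -0.11 with all retinas and of 0.10 without replicate 2.

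*Insig1* (chr5:28071363-28078662, mm10), itself a target of SREBP, was at 116, 114 and 97.2 CPM in WT replicates 1, 2 and 3, and at 90.5, 94.8 and 90.8 CPM in the mutants. The 3 mutant retinas lay within 4.27 CPM of each other and below every WT retina, WT replicate 3 being the nearest. The log2 fold change was -0.25 ± 0.16 (SE; 95% interval -0.62 to 0.12, unadjusted p = 0.157, adjusted p = 0.979, edgeR), and without *Wfs1*-KO replicate 2 it was -0.28 ± 0.14 (adjusted p = 0.963, edgeR) and without WT replicate 3 it was -0.34. *Insig1* lies 8.90 Mb from *Wfs1* on chromosome 5. Within 10 Mb of *Wfs1*, 25 of 199 other tested genes (12.6%) had genotypes that did not overlap, against the 8.96% given above for all genes, and 8 (4.02%) had an unadjusted p under 0.05. Within 2 Mb of *Insig1*, 0 of 16 other tested genes had an unadjusted p under 0.05 in edgeR. The part of this linkage in the *Insig1* values was not tested.

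The other regulators overlapped between genotypes. *Insig2* was at 50.2 to 59.7 CPM in WT and 42.0 to 51.01 CPM in *Wfs1*-KO (log2 fold change -0.20, 95% interval -0.59 to 0.20), and *Scap* at 112 to 139 and 115 to 134 CPM (-0.02, -0.43 to 0.38). *Nr1h2* differed by -0.06 (-0.57 to 0.45). Without *Wfs1*-KO replicate 2 these estimates were -0.13 for *Insig2*, 0.04 for *Scap* and 0.06 for *Nr1h2*. *Nr1h3* was at 3.46 to 4.67 CPM in the other 5 retinas and at 7.20 CPM in *Wfs1*-KO replicate 2. Its estimate turned from 0.24 to -0.17 without that retina. The median over the 7 regulators was -0.06 with all retinas and 0.04 without *Wfs1*-KO replicate 2.

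Of the efflux and turnover genes, *Abca1*, which loads cholesterol onto apolipoproteins, had a log2 fold change of 0.34 ± 0.55 (SE; 95% interval -0.95 to 1.62). It moved to 0.71 ± 0.37 without *Wfs1*-KO replicate 2 (adjusted p = 0.963, edgeR), to 0.97 without WT replicate 3, to 0.02 without WT replicate 1 and to 0.01 without *Wfs1*-KO replicate 3. *Abcg1*, the partner pump that exports sterol to lipoproteins, was at 115 to 146 CPM in WT and 91.6 to 128 CPM in *Wfs1*-KO, a log2 fold change of -0.14 (-0.61 to 0.33), and of -0.01 without replicate 2. *Cyp46a1*, the hydroxylase that turns over cholesterol in neurons, was at 14.4 to 21.1 CPM in WT and 15.6 to 18.7 CPM in *Wfs1*-KO, a difference of 0.06 (-0.44 to 0.56), and of 0.01 without that retina. *Stard4*, a cytosolic carrier of sterols, was at 44.3 to 58.7 CPM in 5 retinas and at 25.4 CPM in *Wfs1*-KO replicate 2, and its estimate turned from -0.21 to 0.05 without it. The median of these 4 genes was -0.04 with all retinas and 0.03 without that retina.

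The departures of *Wfs1*-KO replicate 2 among the members went with the length of the gene. A departure is the log2 CPM in 1 retina minus the mean of the other 5. All 6 members with exons of under 2 kb in total were above the other retinas (median 0.63), whereas 6 of 14 members of 2 to 4 kb were above (median -0.05). None of the 7 members of 4 to 6 kb (median -0.69) and none of the 2 longer members was above. Spearman's rho between departure and exonic length was -0.73 over the 29 members and -0.40 over 18547 tested genes, whose points share 1 library. The medians over all tested genes went the same way, from 0.68 under 2 kb to -0.57 over 6 kb. In *Wfs1*-KO replicates 1 and 3 and in WT replicate 3, longer members were higher (rho 0.55, 0.77 and 0.65), in WT replicates 1 and 2 rho was -0.46 and 0.25, and each retina enters the mean against which the others are set. *Lss* (-2.74) and *Idi1* (-1.52) lay below the medians of all tested genes of their length classes (-0.36 and 0.04). *Pmvk* (1.48) lay above that of its class (0.68). The SD of departures in *Wfs1*-KO replicate 2 was 1.18 over all tested genes and 0.826 over the members.

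**Figure D5:**
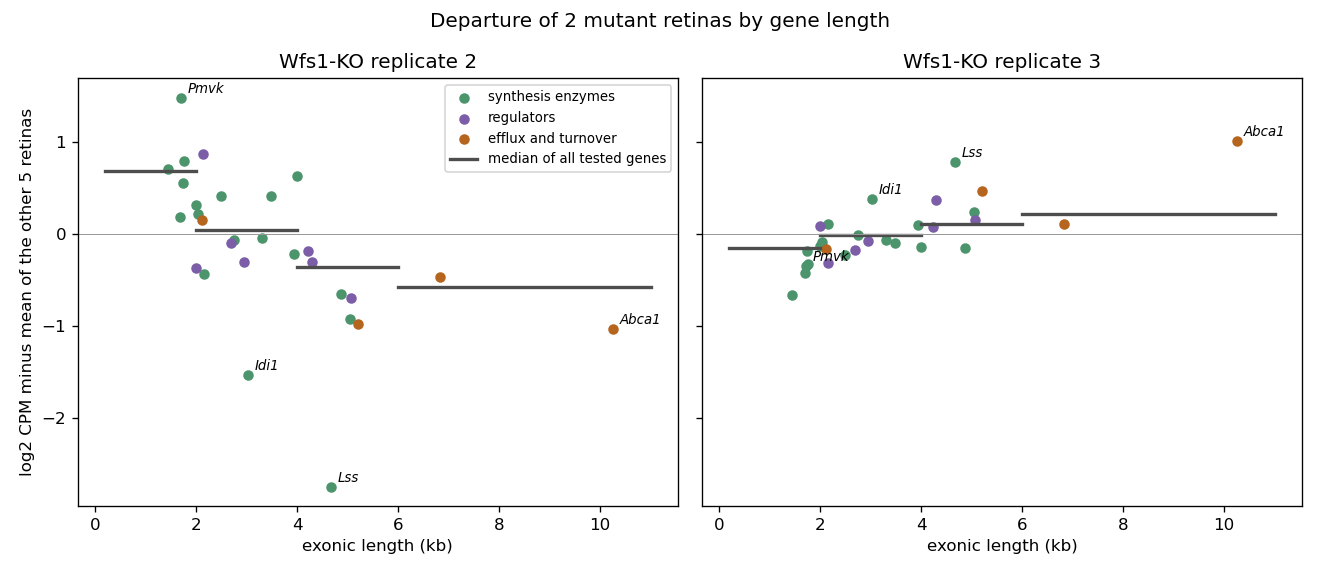
Departure of each gene in *Wfs1*-KO replicate 2 (left) and replicate 3 (right), as log2 CPM minus the mean of the other 5 retinas (y axis), against exonic length in kilobases (x axis). Points are the 29 genes by role and dark lines the medians of all tested genes in 4 length classes. In replicate 2 the 6 genes under 2 kb lie above 0 and all genes over 4 kb below. In replicate 3 the 6 genes under 2 kb lie below 0. Above 0 there are 6 of 7 genes of 4 to 6 kb, *Sc5d* (-0.15) being the exception, and the 2 longer genes.

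When the trend of each library with length was removed over all genes, the SD of the members' departures in *Wfs1*-KO replicate 2 was 0.656 instead of 0.826 and rho was -0.32. The constant added before the log2 also differed between these SDs. In the fit with the length trend removed, 15 of 18 synthesis enzymes were below 0 (median -0.12, against 0.00 over all tested genes). *Sc5d* differed by -0.42 ± 0.13 (SE, unadjusted p = 0.0148, edgeR), *Insig1* by -0.27, *Srebf1* by 0.38 and *Pmvk* by 0.44. In that edgeR fit 0 of 29 members passed the adjusted threshold (0.0324% of all tested genes did) and 1 of 29 had an unadjusted p under 0.05 (3.36% of all tested genes). The source of the length trend was not tested.

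To place the members beside the rest of the pathway, 64 further genes in 6 lists were examined, of which 61 were tested. The untested genes included 2 of the oxysterol and bile acid list, *Hsd3b7*, with 0 reads in every retina, and *Ch25h*. *Ch25h* was counted at 2, 1 and 0 reads in WT replicates 1, 2 and 3 and at 14, 478 and 6 reads in the mutants. Its level was 11.3 CPM in *Wfs1*-KO replicate 2 and 0.136 CPM in each of the other mutants. EdgeR called 0 of 61 at the adjusted threshold, as did DESeq2, and 1 of 61 had an unadjusted p under 0.05 in edgeR (2.81% of all tested genes) and 2 of 61 in DESeq2 (4.02%). Genotypes did not overlap for 6 of 61 genes (8.96% of all tested genes), 2 of them higher and 4 lower in *Wfs1*-KO. The 16 genes of the fatty acid arm of SREBP, among them *Fasn* and *Scd2*, had a median log2 fold change of -0.05 (10 below 0), and of 0.03 without *Wfs1*-KO replicate 2. The 10 genes that control SREBP and the reductase in the endoplasmic reticulum had a median of -0.12 (7 below 0), and of 0.05 without that retina. For the 9 genes of the isoprenoid branches the median was -0.02, for the 17 genes of sterol uptake, trafficking and esterification -0.05, for the 4 tested oxysterol and bile acid enzymes 0.28 and for the 5 tested LXR targets and cofactor genes -0.03. Without *Wfs1*-KO replicate 2 these were -0.09, 0.05, -0.03 and -0.0048.

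*Sult2b1*, a sulfotransferase of oxysterols, was the gene at an unadjusted p under 0.05. It was counted at 5 to 23 reads in WT and 17 to 67 reads in the mutants, or 0.284 to 0.346 CPM and 0.386 to 1.59 CPM, highest in *Wfs1*-KO replicate 2. Its log2 fold change was 1.45 ± 0.61 (SE; unadjusted p = 0.0488, adjusted p = 0.979, edgeR) and 0.67 ± 0.53 without that retina (unadjusted p = 0.228, edgeR).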

How the data were processed

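RNA-seq counts of 6 whole retinas (3 WT, 3 *Wfs1*-KO) were used. Per the labels, total RNA was extracted with Trizol and libraries were made with an Illumina TruSeq kit. The submitters' processing notes name Trimmomatic 0.39, STAR 2.5.3a, featureCounts 1.6.4 and the build mm10. The authors deposited raw read counts per gene, with exon coordinates and exonic length, as 1 table. Its columns carry the letters C and W, which were read as control (WT) and *Wfs1*. A further 2 library columns matched no listed sample and were not used.

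All genes passing filterByExpr were fitted in edgeR 4.0.16 (R 4.3.3, TMM scaling, quasi-likelihood test, genotype as the factor), with Benjamini-Hochberg adjustment over all tested genes and a threshold of 0.05. DESeq2 1.42.0, limma 3.58.1 (voom), other scalings and filters, a replicate block, each retina left out and an offset for length were tried as alternatives. The scripts were tested on simulated counts. SE was the log2 fold change over the square root of F. For departures, 2 was added as prior count before the log2 of CPM. For departures after removal of the length trend, a fixed constant was added to CPM instead. Markers, lists and members were chosen with earlier results of these data known. All members could be named, with full statistics for those at an unadjusted p under 0.05 with or without *Wfs1*-KO replicate 2, those without overlap, and the 5 highest and 5 lowest per length. Of other pathway genes, those at an unadjusted p under 0.05 were named, with *Fasn* and *Scd2* as examples and *Ch25h* and *Hsd3b7* as untested genes. Promoter windows and motif shares came from RefSeq (GRCm38.p6). Intervals reflect the spread among 3 retinas a group, and read depth differed by library.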

Additional observations from a re-analysis of the deposited data

How the results depend on the processing

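In 0 of 15 alternatives was a member or another pathway gene called at the adjusted threshold. Deviations of same-numbered retinas from the means of their genotypes correlated at -0.23, -0.11 and 0.08. As the outlying *Wfs1*-KO replicate 2 enters the mean of all mutants, these values cannot decide whether the replicate numbers pair the samples. With a replicate block in edgeR, 0 of 29 members instead of 1 had an unadjusted p under 0.05. That count was 0 to 2 with 1 retina left out, being 0 without WT replicate 2, WT replicate 3, *Wfs1*-KO replicate 1 or *Wfs1*-KO replicate 3 and 2 without *Wfs1*-KO replicate 2, and 2 in DESeq2 without that retina. For other pathway genes the count was 2 in DESeq2, with no filter, with the length offset (chosen after the data were seen) and in DESeq2 without *Wfs1*-KO replicate 2, 0 with limma-voom, RLE scaling or at least 10 counts in every retina, and 0 to 2 with 1 retina left out. Of 435 pairs of a member and an alternative, 389 kept the sign of the log2 fold change and 46, over 18 members, turned it, none of a member beyond 0.31 in size. With 1 retina left out, the values of members that turned ran -0.118 to 0.161 (*Hmgcs1*), -0.0538 to 0.271 (*Mvk*), -0.227 to 0.322 (*Mvd*), -0.531 to 0.0421 (*Idi1*), -0.408 to 0.199 (*Fdps*), -0.084 to 0.305 (*Fdft1*), -0.569 to 0.271 (*Lss*), -0.331 to 0.00206 (*Tm7sf2*) and -0.142 to 0.0636 (*Msmo1*). The others ran -0.184 to 0.206 (*Ebp*), -0.134 to 0.0136 (*Dhcr7*), -0.277 to 0.0614 (*Acat2*), -0.26 to 0.0977 (*Srebf2*), -0.118 to 0.0418 (*Scap*), -0.197 to 0.102 (*Nr1h2*), -0.168 to 0.408 (*Nr1h3*), -0.0608 to 0.249 (*Cyp46a1*) and -0.505 to 0.0493 (*Stard4*). In DESeq2 with *Wfs1*-KO replicate 2 left out, the turned values were -0.119 (*Hmgcs1*), -0.0535 (*Mvk*), -0.227 (*Mvd*), 0.0435 (*Idi1*), -0.0845 (*Fdft1*), 0.27 (*Lss*), -0.185 (*Ebp*), 0.0969 (*Srebf2*), 0.0413 (*Scap*), 0.0592 (*Nr1h2*), -0.172 (*Nr1h3*) and 0.0493 (*Stard4*). With the length offset they were -0.0169 (*Mvk*), -0.017 (*Mvd*), -0.0771 (*Ebp*), 0.0357 (*Scap*) and -0.00898 (*Cyp46a1*), and with upper-quartile scaling 0.00573 (*Fdps*). The cause of these turns was not tested. With 3 retinas a group, the 95% intervals of the members ran from 0.69 wide (*Sqle*) upward in log2 fold change, which limits the differences that could be detected.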
